A study of Homo sapiens with 18 samples.

Results

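The 66 genes described here encode the replication-dependent histones: 6 linker histones of type H1 and the core histones H2A (16 genes), H2B (17), H3 (13) and H4 (14). They were taken by name from the 60675 gene IDs of the deposited tables (H2AC, H2BC, H3C or H4C followed by digits, and H1-1 to H1-6), after 12 pseudogenes whose names end in P were dropped. RNA had been measured in U87, an established human glioblastoma line with no genetic modification, grown in serum and given a single dose 24 h before the RNA was taken. The 18 libraries formed 6 groups of 3: ethanol, the vehicle, and 0.1 µM of bexarotene, A34, A41, A80 or A98. Bexarotene is a rexinoid in clinical use, that is, a ligand of the retinoid X receptors, and the other 4 compounds are rexinoids known here by code only. Per the labels, ethanol and bexarotene were the controls. Table names code the A98 group as A90, so its compound is given here as the labels name it, and each A98 value rests on that label. The labels mention no synchronisation of the cells. They also do not state whether the 3 replicates were separate cultures, so the p-values below reflect spread among replicates that may be only technical.

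Replication-dependent histone genes are transcribed in S phase, when new DNA must be packed into nucleosomes. Their genes lie in clusters, lack introns in the coding region and give the only abundant metazoan mRNAs without a poly(A) tail: the message ends just after a short stem-loop, which the protein SLBP binds and the U7 small nuclear RNA helps to cut. An octamer of core histones, a pair each of H2A, H2B, H3 and H4, wraps DNA, and H1 binds where the DNA enters and leaves it. Libraries made from total RNA after removal of ribosomal RNA and primed at random, as these were, retain such messages, whereas a library selected on poly(A) loses most of them.

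The stem-loop is shown first because it is what these genes have in common beyond their name. A search of the GENCODE release 29 transcripts (GRCh38) found a stem-loop with 6 base pairs in 27 of the 64 members with a transcript there, and none in the models of the other 37. A model that stops early can miss it, so a missing match does not show that a gene lacks the stem-loop. Among the 37, the exons searched cover 312 bases in H4C12, 312 in H4C4 and 381 in H2BC12. The deposited spans of these 3 genes are 387, 403 and 495 bases. In each line the capitals mark the 16 bases of the stem-loop, and 5 flanking bases stand on either side.
H2AC19: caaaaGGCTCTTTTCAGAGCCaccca
H2BC21: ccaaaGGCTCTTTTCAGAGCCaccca
H2BC4: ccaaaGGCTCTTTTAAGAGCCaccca
H2AC11: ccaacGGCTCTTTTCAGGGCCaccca
H4C2: ccaatGGCCCTTTTCAGGGCCgccca
H4C8: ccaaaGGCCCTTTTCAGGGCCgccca
H4C14: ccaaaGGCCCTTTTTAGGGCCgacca
The form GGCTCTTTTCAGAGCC was found in 15 members of types H2A, H2B and H3. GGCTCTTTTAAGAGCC was found in H2BC4, H2BC5, H2BC7 and H3C8 (4 members). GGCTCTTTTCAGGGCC was found in H2AC11. The H4 genes carried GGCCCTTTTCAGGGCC (4 members) or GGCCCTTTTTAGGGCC (3 members). The model of H2AC19 ends 35 bases after the stem-loop, whereas that of H2BC21 runs on for 1729 bases, and 15 of the 27 members had a model that continued for more than 500 bases. TPM divides reads by the length of the model, which includes such tails where the annotation used for TPM holds them.

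The promoters of the histone types differed in the motifs they held. RefSeq promoter windows (GRCh38.p14, 250 bases before to 50 after the start) matched 61 of the 66 members, and 5 motifs were sought on both strands: TATAAA, the TATA box; CCAAT; ATTTGCAT, the octamer bound by POU2F1; GGTCCG, part of the H4 element bound by HINFP; and AAACACA, known from H1 promoters. AAACACA was in 6 of 6 H1 windows and in 3 of the other members' windows. ATTTGCAT was in 11 of 15 H2A and 14 of 17 H2B members, in 1 of 11 H3 members, and in 0 of 6 H1 and 0 of 12 H4 members. GGTCCG was in 11 of 12 H4 members and in 1 each of the H2A, H2B and H3 types. In 10 pairs an H2A and an H2B gene are transcribed away from each other over at most 400 bases. Their windows can hold the same site, which is then counted for both genes. CCAAT was in every H1, H2A, H2B and H3 window matched and in 3 of 12 H4 windows. Over all 35116 windows the shares were 5.64% for AAACACA, 1.77% for ATTTGCAT, 11.3% for GGTCCG, 34.6% for CCAAT and 11.5% for TATAAA. The 200 bases before the start follow for a high member of each type and for H4C11, a copy of H4C12, with the motifs in capitals; the positions are chr6:27867589-27867788 on the minus strand (H1-5), chr1:149886718-149886917 on the plus strand (H2AC20), chr6:27146859-27147058 on the minus strand (H2BC12), chr6:26032100-26032299 on the minus strand (H3C2), chr6:27831561-27831760 on the minus strand (H4C12) and chr6:27823892-27824091 on the plus strand (H4C11).
H1-5: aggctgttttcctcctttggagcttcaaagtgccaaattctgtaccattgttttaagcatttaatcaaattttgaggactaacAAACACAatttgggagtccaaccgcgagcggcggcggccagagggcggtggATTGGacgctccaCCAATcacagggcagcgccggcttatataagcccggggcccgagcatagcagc
H2AC20: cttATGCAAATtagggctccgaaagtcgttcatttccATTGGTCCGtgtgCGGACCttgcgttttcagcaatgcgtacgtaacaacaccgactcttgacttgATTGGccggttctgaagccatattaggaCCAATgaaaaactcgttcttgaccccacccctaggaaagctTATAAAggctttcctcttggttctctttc
H2BC12: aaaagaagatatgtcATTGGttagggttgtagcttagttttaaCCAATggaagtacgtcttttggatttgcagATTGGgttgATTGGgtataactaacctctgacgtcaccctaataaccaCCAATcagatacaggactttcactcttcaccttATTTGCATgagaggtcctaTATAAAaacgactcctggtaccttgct
H3C2: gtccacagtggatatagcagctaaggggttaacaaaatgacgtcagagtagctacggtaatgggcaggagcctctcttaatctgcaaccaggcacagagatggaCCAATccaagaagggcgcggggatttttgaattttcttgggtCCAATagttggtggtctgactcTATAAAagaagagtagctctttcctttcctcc
H4C12: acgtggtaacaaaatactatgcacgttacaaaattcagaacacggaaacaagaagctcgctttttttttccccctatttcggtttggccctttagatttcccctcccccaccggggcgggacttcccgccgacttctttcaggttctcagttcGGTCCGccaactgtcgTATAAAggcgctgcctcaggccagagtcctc
H4C11: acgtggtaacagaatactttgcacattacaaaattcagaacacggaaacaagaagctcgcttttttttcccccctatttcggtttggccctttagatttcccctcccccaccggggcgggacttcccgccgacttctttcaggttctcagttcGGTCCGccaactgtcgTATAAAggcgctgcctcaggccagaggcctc
In H4C12 the H4 motif begins 47 bases and the TATA box 31 bases before the start, and H4C11 has both at the same places, with 195 of the 200 bases identical between the 2 genes. In H2BC12 the octamer begins 46 bases and the TATA box 27 bases before the start. The bases before H2AC20 also lie before H2BC21, which is transcribed away from it, and there a reversed CCAAT and GGTCCG overlap. A match of letters is a description of the sequence and no evidence that a factor binds.

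The libraries held 1.31 to 3.89 gigabases of aligned sequence (median 2.08). Ribosomal RNA took 35.5% of TPM in ethanol 2, 44.9% in bexarotene 1 and 56.1% in A41 2, against 0.349% to 4.35% in the other 15 libraries (libraries are named by group and replicate number of the title). Levels are therefore given as scaled TPM, the deposited TPM divided by a factor for each library that sets the median gene equal, and the counts and medians were also computed after dropping these 3 libraries. The cells had the mesenchymal glioma markers VIM, CD44 and FN1 at means of 4035, 1009 and 298 scaled TPM and, of 4 astrocyte markers, SLC1A3 at 20.8 and GFAP, ALDH1L1 and AQP4 below 1. Of the neuron markers TUBB3 averaged 68.6, SNAP25 14.1 and RBFOX3 0.185, and of the oligodendrocyte markers MBP averaged 1.23 and MOG was below 0.1. The leukocyte markers PTPRC and CD3E were below 0.2 in every library. The genes CYP26B1, DHRS3, ABCA1 and SCD were higher than in ethanol with each of the 5 rexinoids (4 of 4 called each time); they were chosen from earlier results on these same libraries, so this count is a description and no check of the treatment.

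Histone messages were abundant in these cells. Over the 18 libraries 47 of the 66 members averaged more than 100 scaled TPM, the median member averaged 182, and the 66 together made up between 0.651% (A41 2) and 1.86% (A41 3) of deposited TPM. Ribosomal RNA took 56.1% of that TPM in A41 2. In scaled TPM the members summed to 15511 there and to 16419 in A41 3. The 2 highest were the identical H2A genes H2AC19 (mean 692, from 604 to 827) and H2AC18 (mean 672, from 598 to 813) on chromosome 1. The linker histone genes H1-5 (587), H1-2 (536) and H1-4 (446) and the H2A gene H2AC20 (506) came next. Then followed H4C12 (406), H3C2 (402), H4C11 (381), H4C2 (370), H4C3 (360) and H4C4 (358), with H2BC12 (353) and H2BC4 (349) the highest H2B genes and H3C3 (319) the second H3 gene. Among these, neighbours in the order overlapped over the libraries: H4C12 ranged from 333 to 516 and H4C4 from 281 to 425.

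**Figure D1:**
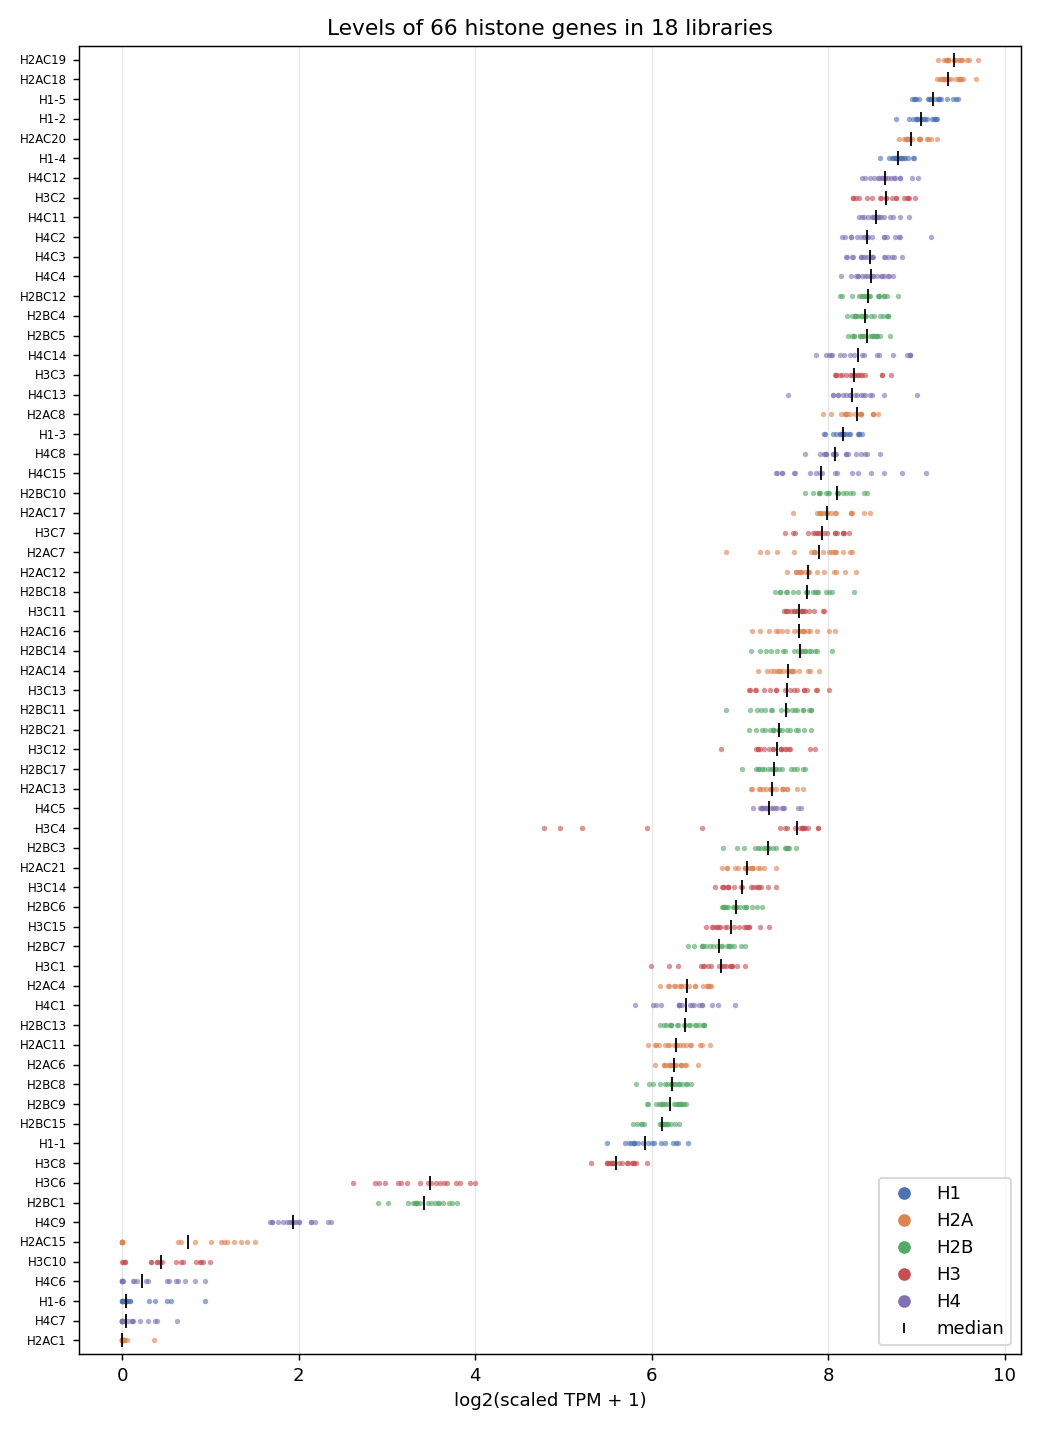
Level of each of the 66 members in each of the 18 libraries, as log2(scaled TPM + 1), ordered by mean and coloured by histone type, with a bar at the median. 57 members average between 48.9 and 692 scaled TPM, H2AC19 and H2AC18 lead, H3C4 is split into low and high libraries, and 9 members sit apart at the low end.

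At the low end, 9 members averaged under 20 scaled TPM and 6 of them under 2. H3C6 averaged 9.94. The testis histone gene H2BC1 averaged 9.88, and its divergent neighbour H2AC1, also known from testis, averaged 0.0221. H1-6, the testis linker histone gene, averaged 0.145. H4C9 averaged 2.93, H2AC15 0.725, H3C10 0.444, H4C6 0.279 and H4C7 0.102. Of the 6 members under 2, H2AC15 and H3C10 passed the filter for testing (at least 1 TPM in at least 3 libraries) and the other 4 did not, so 62 members were tested. The promoter windows of the 6 held CCAAT in 5 and TATAAA in 3, against 35 and 31 of the 43 matched members above 100.

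By place, 11 members lie on chromosome 1 and 55 on chromosome 6, all within the coordinates of the deposited tables on GRCh38. The chromosome 6 block from 26017032 (H1-1) to 26285638 (H4C8) held 32 members whose summed level averaged 6459 scaled TPM, and the block from 27125897 (H2BC11) to 27893891 (H2BC17) held 21 with a sum of 4241. The 11 genes of chromosome 1 gave 3456. Genes transcribed away from each other over at most 400 bases formed 11 pairs, and 10 of them joined an H2A and an H2B gene. The levels of paired genes could be unequal: H2AC8 averaged 316 and H2BC8 73.5 across 282 bases, and H2AC6 averaged 75.7 and H2BC4 349 across 218 bases. In H2AC14 and H2BC14, 244 bases apart, the means were 186 and 196. The exons in GENCODE release 29 cover 509 bases in H2AC8 and 1534 in H2BC8, 1668 in H2AC6 and 834 in H2BC4. In H2AC14 and H2BC14 they cover 387 and 381. In both of these unequal pairs the gene with the longer model there had the lower level per length. Further pairs went both ways. H2BC21 averaged 175 with 2194 exon bases and H2AC20 506 with 390. By contrast, H2AC13 averaged 167 with 503 and H2BC13 81.8 with 488, and H2AC17 averaged 267 with 393 and H2BC17 169 with 381. The annotation used for the deposited TPM is not stated, and its models may differ. The 43 members whose span was under 1000 bases had a median level of 228, and the 23 with longer spans 125; the part of model length in this was not tested.

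For some members the tables cannot say which copy the RNA came from. In 4 pairs a transcript of one gene is identical to, or lies wholly inside, a transcript of the other: H2AC18 and H2AC19, H3C14 and H3C15, H4C14 and H4C15, and H4C11 and H4C12. H2AC18 held between 48.6% and 49.8% of its pair in every library, and H3C14 between 51.3% and 52.7%. H4C14, by contrast, held between 39.8% (A34 1) and 73.4% (bexarotene 2) of its pair, whose sum ran from 409 (bexarotene 3) to 926 (A34 3). H4C14 and H4C15 also overlap H3C14 and H3C15 on the other strand, and whether reads were counted by strand is not stated by the sources at hand. H3C12 and H2AC17 share a stretch on the same strand, as do H2BC15 and H2AC16, and H2AC15 lies inside the span of H2BC15 on the other strand.

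H3C4, an H3 gene, fell into separate sets of libraries that cut across the treatments. It stood at 60.8, 185 and 209 scaled TPM in ethanol, 212, 196 and 207 in bexarotene, 181, 174 and 210 in A34, and 234, 218 and 208 in A41. In A80 the values were 204, 93.8 and 26.4, and in A98 36.1, 30.2 and 236. The 5 low libraries were ethanol 1, A80 2, A80 3, A98 1 and A98 2. In the same 5, AL031777.2, a gene model on the same strand of chromosome 6 (26195595 to 26199293) whose span covers H3C4 and H2AC7, stood at 71.2 to 140, and in the other 13 at 0 to 24.7. H2AC7 was also lower in the 5 (114 to 195) than in the 13 (223 to 308). The sum of H3C4 and AL031777.2 varied 2.03-fold over the 18 libraries, against 8.94-fold for H3C4 alone. The log2 differences of H3C4 from ethanol were 0.62, 0.50, 0.72, -0.72 and -1.04 for bexarotene, A34, A41, A80 and A98 (SE 0.71 each), and none passed the test. How reads were divided between these overlapping models was not tested.

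**Figure D2:**
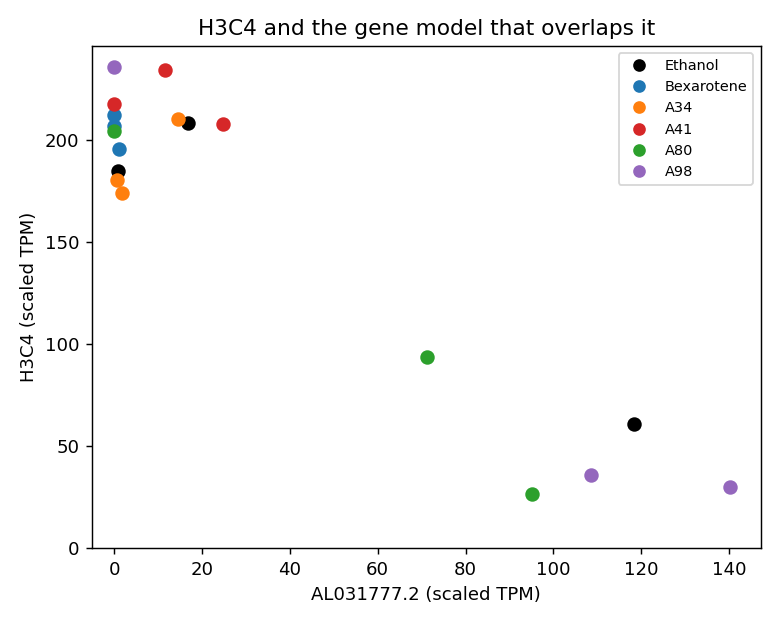
Scaled TPM of H3C4 against that of the overlapping gene model AL031777.2, with 1 point per library coloured by group. The 5 libraries with AL031777.2 at 71.2 or more have H3C4 at 93.8 or less, and the other 13 have H3C4 at 174 or more.

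No replication-dependent histone gene passed the test against ethanol with any of the 5 rexinoids. The count was 0 of 62 in each of the 5 comparisons and for the mean of the 5 rexinoids, at an adjusted p under 0.05 (limma on log2(scaled TPM + 1), all 18 libraries, Benjamini-Hochberg over the 18269 genes tested in a comparison). Over all genes tested the shares called were 0.0547% for bexarotene, 0.0821% for A34, 0.755% for A41, 0.0438% for A80, 0.0328% for A98 and 0.203% for the mean, so few genes of any kind were called. The smallest adjusted p among members was 0.24 for A41, 0.34 for A34, 0.45 for A80, 0.82 for A98, 0.84 for bexarotene and 0.37 for the mean. At an unadjusted p under 0.05 the members numbered 7 for A41 (10.3% of all genes), 3 for A34 (10.7%), 2 for A80 (9.43%), 1 for bexarotene (5.75%), 0 for A98 (6.63%) and 1 for the mean (10.3%). These counts rest on the scaling. For A41 the count was 0 with TPM as deposited and 0 with upper-quartile scaling. With ribosomal RNA left out of TPM it was 1 for A41, 13 for A34, 20 for A80, 6 for bexarotene, 0 for A98 and 8 for the mean. All genes had medians below 0 there, at -0.16 for A41, -0.11 for A34 and -0.12 for A80. The shares of all genes given above hold for the main scaling with all 18 libraries. They are no background for the counts under other settings, which are therefore not read as a result about the members. H2AC15 gave the smallest p for A34, bexarotene and the mean, but it was at 0 in all 3 ethanol libraries and passed the filter only through rexinoid libraries, so its direction was fixed by the filter and its test is not read. As scaled here, it is 1 of the members counted at an unadjusted p under 0.05 for A34, A80, bexarotene and the mean. Without it the smallest adjusted p was 0.41 for A34, 0.85 for bexarotene and 0.61 for the mean. A missed threshold does not show that a gene stayed equal, but the intervals bound the change: between 57 (A34) and 60 (A80) of the 62 members had a 95% interval inside a 2-fold change from ethanol in either direction, and between 46 (A34) and 54 (A98) inside 1.5-fold. In bulk RNA such as this, fewer cells in S phase and less histone RNA per cell cannot be told apart.

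**Figure D3:**
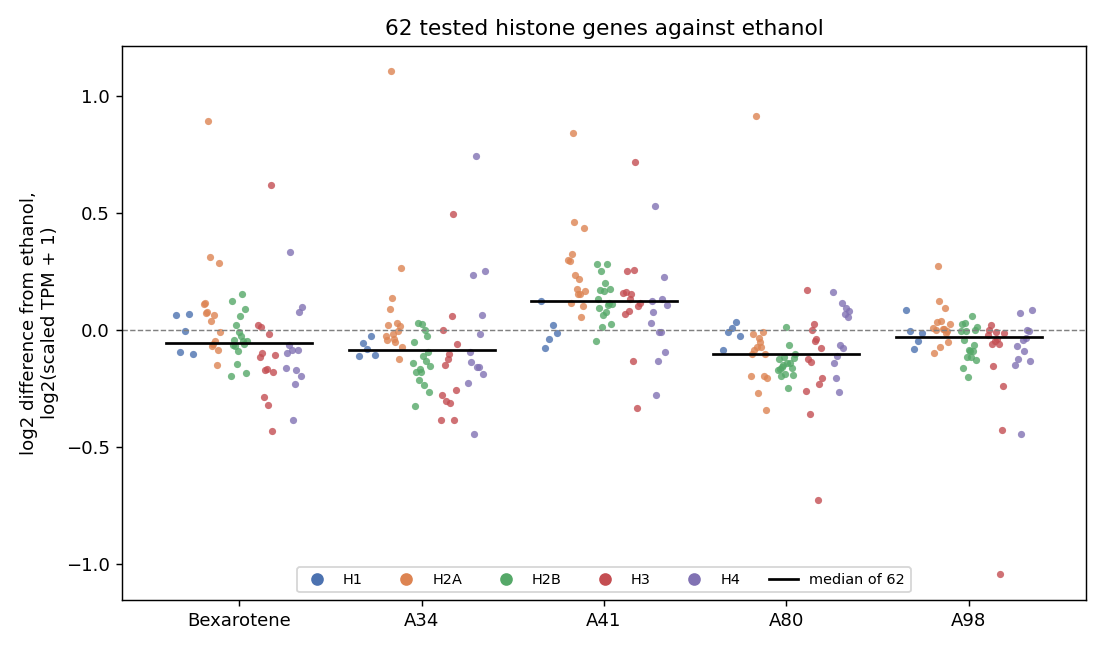
Log2 difference from ethanol, on log2(scaled TPM + 1), of the 62 tested members for each rexinoid, coloured by histone type, with a line at the median of the 62. The medians lie between -0.10 (A80) and 0.12 (A41), and none of the points passed the test.

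With A41 the members leaned upward. The median log2 difference was 0.12 and 51 of 62 were above 0, against a median of -0.01 and 48.7% of all genes. H2BC4, an H2B gene, stood at 393, 406 and 404 scaled TPM with A41 and at 315, 332 and 343 in ethanol. All 3 A41 libraries were above all 3 ethanol libraries, and the log2 difference was 0.28 (SE 0.09, adjusted p = 0.24). The H4 gene H4C13 stood at 359, 512 and 342 with A41 and at 264, 286 and 275 in ethanol, again without overlap, at 0.53 (SE 0.17, adjusted p = 0.26); its high value was in A41 2, a library rich in ribosomal RNA. H2AC16, an H2A gene, stood at 205, 269 and 255 against 139, 209 and 184, where the groups overlap, at 0.46 (SE 0.15, adjusted p = 0.26). The H2A gene H2AC20 was at 561, 553 and 600 with A41 and at 477, 469 and 527 in ethanol, which do not overlap, at 0.22 (SE 0.08, adjusted p = 0.36). In all, 11 of 62 members had every A41 library above every ethanol library (8.27% of all genes did) and 0 had every one below (7.67%). By type, the median difference was 0.22 for H2A with 15 of 15 above 0 (H2AC15 among them), 0.11 for H2B with 16 of 17, 0.13 for H3 with 11 of 13, 0.05 for H4 with 7 of 12 and -0.01 for H1 with 2 of 5. The direction rests on the scaling: with TPM as deposited the median was -0.21 and 6 of 62 were above 0, while all genes had a median of -0.27 there. Relative to all genes the members' median stayed above 0, at 0.13 as scaled here, 0.07 as deposited, 0.12 with upper-quartile scaling, 0.11 with ribosomal RNA left out of TPM and 0.08 once the 3 rRNA-rich libraries were dropped.

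With the other rexinoids the medians were below 0 as scaled here, although A34 (0.01) and A98 (0.14) were above 0 with TPM as deposited and A80 (0.03) with upper-quartile scaling; relative to all genes each stayed below 0 under those scalings. A80 gave -0.10, with 13 of 62 above 0. H3C12, an H3 gene, stood at 146, 160 and 110 with A80 and at 175, 165 and 188 in ethanol, without overlap, and the log2 difference was -0.36 (SE 0.14, adjusted p = 0.45). H2AC17, which shares a stretch with it, stood at 240, 234 and 192 against 245, 305 and 253, at -0.27 (SE 0.13, adjusted p = 0.54). For 10 members every A80 library lay below every ethanol library (7.78% of all genes), and for 1 above (8.60%), H2AC15, whose direction the filter fixed. A34 gave a median of -0.09, with 15 of 62 above 0; without A34 1 the median was 0.01. The H2B gene H2BC8 stood at 55.5, 61.5 and 82.9 with A34 and at 78.0, 73.4 and 86.2 in ethanol, where the groups overlap, at -0.26 (SE 0.11, adjusted p = 0.42). H4C15 stood at 396, 358 and 550 with A34 and at 308, 221 and 243 in ethanol, at 0.74 (SE 0.31, adjusted p = 0.41), one of the copies whose reads may be shared. For 3 members every A34 library lay above every ethanol library (8.22% of all genes), H4C13, H4C15 and, fixed by the filter, H2AC15, and for 0 below (8.36%).

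Bexarotene and A98 had medians of -0.05 (22 of 62 above 0) and -0.03 (18 of 62). For A98 the median was 0.04 without A98 1 and 0.02 without ethanol 3. With bexarotene the smallest p, H2AC15 aside, belonged to H2AC16 and H4C13. H2AC16 stood at 233, 210 and 209 against 139, 209 and 184 in ethanol (0.31, SE 0.15, adjusted p = 0.85), and H4C13 at 394, 314 and 336 against 264, 286 and 275 (0.33, SE 0.17, adjusted p = 0.87). With A98 they belonged to H3C7, H4C14 and H3C4, of which H3C7 stood at 196, 235 and 238 against 273, 230 and 286 in ethanol (-0.24, SE 0.15, adjusted p = 0.82). H2AC15 was listed at 0 in all 3 ethanol libraries and at 1.67, 1.41 and 0 with bexarotene, 0.583, 1.22 and 1.85 with A34, 0, 1.27 and 1.55 with A41, 0.552, 1.17 and 1.00 with A80, and 0.774, 0 and 0 with A98. These levels sit at the filter of 1 TPM, and the gene lies inside the span of H2BC15. With bexarotene every library lay above ethanol for 2 members, H2AC16 and H4C13 (6.88% of all genes), and below for 0 (5.9%). With A98 it was above for 0 (8.49%) and below for 1, H2BC17 (8.18%). The comparisons share the 3 ethanol libraries, so their values for a member are not independent.

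Summed over all 66 members, the libraries held 14269, 13358 and 15297 scaled TPM in ethanol, 14483, 13401 and 13994 in bexarotene, 12075, 12865 and 16481 in A34, 14928, 15511 and 16419 in A41, 13072, 13323 and 14043 in A80, and 12555, 14015 and 14889 in A98. A34 held both the lowest and the highest library, and the total of every rexinoid group overlapped that of ethanol. H2A sums were 4018, 4425 and 4704 with A41 and 3600, 3720 and 3951 in ethanol, which do not overlap, and 3555, 3524 and 3409 with A80, all below ethanol. H2B sums were 3040, 3619 and 3393 with A41 and 2955, 2855 and 3177 in ethanol, which overlap, and 2605, 2830 and 2722 with A80, all below ethanol. H1 sums were close in every group, with means from 1870 ± 263 (A34) to 1952 ± 114 (ethanol; SD, n = 3 each). H3 sums averaged 2176 ± 232 in ethanol and 2396 ± 152 with A41, and H4 sums 3428 ± 423 and 3557 ± 43.4. Over the 18 libraries H2A took 24.3% to 28.7% of the total, H4 21.7% to 25.8%, H2B 19.4% to 23.3%, H3 13.9% to 15.8% and H1 10.8% (A41 2) to 15.4% (A80 3). In A41 2, rich in ribosomal RNA, the H1 sum was the lowest of the 18 (1672) and the H2B sum the highest (3619).

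**Figure D4:**
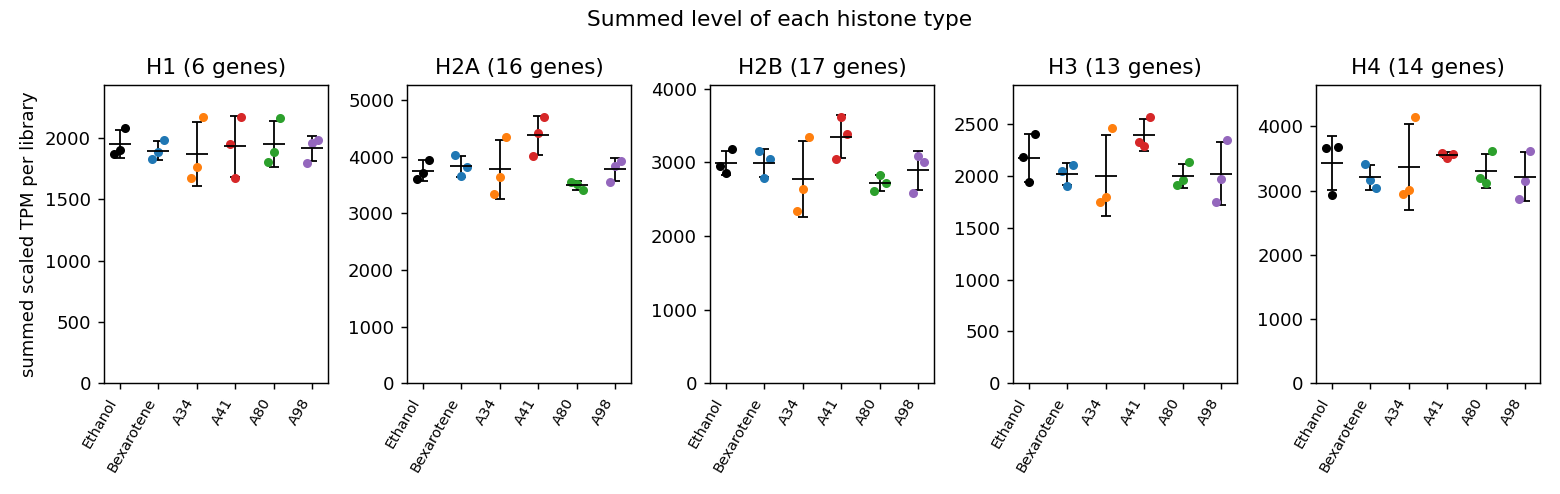
Summed scaled TPM of the genes of each histone type, with 1 point per library, the group mean as a bar and the SD (n = 3) as error bars; the vertical axes start at 0. The A41 libraries lie above ethanol for H2A, and for each type the range inside A34 is wider than the range of the 6 group means.

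Among the rexinoids at the same dose and time, 10 pairs were compared, and no member was called in any pair when p was adjusted over all genes and all 10 pairs (0 of 62 in each pair, smallest adjusted p 0.32). With p adjusted within each pair the count was also 0 of 62 in all 10. Over all genes the share called was then 0.115% for A41 against bexarotene, 0.0712% for A41 against A34, 0.126% for A80 against A41 and 0.131% for A98 against A41. It was 0.00547% for A98 against bexarotene, against A34 and against A80, and 0% for the other 3 pairs. At an unadjusted p under 0.05 the counts differed between pairs. In A80 against A41 the count was 28 of 62, all lower with A80 (7.95% of all genes had such a p). In A41 against A34 the number was 19, of which 18 were higher with A41 (7.88%), in A98 against A41 14, all lower with A98 (7.15%), and in A41 against bexarotene 5, all higher with A41 (6.23%). In the pairs without A41 the number was 7 for A80 against bexarotene (6.06%), 2 for A34 against bexarotene (5.2%), 2 for A80 against A34 (3.55%), 2 for A98 against A34 (4.51%), 1 for A98 against bexarotene (6.86%) and 1 for A98 against A80 (4.04%). The 95% interval of the difference lay inside a 2-fold change for 57 to 61 of the 62 members, depending on the pair, and inside 1.5-fold for 37 (A80 against A41) to 52. H3C12 stood at 181, 221 and 230 with A41 and at 146, 160 and 110 with A80, without overlap, a log2 difference of -0.61 (95% interval -0.91 to -0.32, adjusted p = 0.32 over genes and pairs). H2AC11, an H2A gene with the stem-loop shown above, stood at 85.4, 99.7 and 94.2 with A41 and at 64.8, 71.6 and 61.1 with A80, also without overlap, at -0.49 (-0.73 to -0.25, adjusted p = 0.32). For 32 members every A41 library was above every A80 library (5.16% of all genes), and for 0 below (5.51%). The numbers were 15 above (6.11%) and 0 below (6.13%) for A41 against A98, 16 (5.53%) and 0 (4.35%) against bexarotene, and 1 (5.3%) and 1 (4.48%) against A34. Members are not replicates of each other, and as shown next they rise and fall together from library to library, so these counts do not stand for as many separate observations. Across the 5 rexinoids an F test called 0 of 62 (0.0657% of all genes), and 11 had an unadjusted p under 0.05 (6.32%), led by H2AC11, H3C12 and H2BC4. The counts over pairs changed when 1 library was left out: without A34 3, 2 members passed, H3C1 in A41 against A34 (0.83, adjusted p = 0.032) and H2AC11 in A80 against A41 (-0.49, adjusted p = 0.022). H3C1 stood at 62.4, 72.5 and 124 in A34 and at 119, 111 and 133 with A41.

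Libraries of the same group differed from each other as a block. Over the 57 tested members that averaged at least 20 scaled TPM, the deviations of a library from its group mean went together: the correlation between 2 members over the 18 libraries had a median of 0.57, and 93.0% of the 1596 pairs of members were above 0. The points share their library and its scaling, so this is a description. Pearson's r was 0.98 for the identical H2AC18 and H2AC19 and 0.99 for H3C14 and H3C15, whose reads cannot be separated, 0.56 for H4C14 and H4C15, and had a median of 0.61 over the divergent pairs with both genes tested. The mean deviation of the members from the mean of the 18 libraries was lowest in A34 1 (-0.23), A98 1 (-0.20), A34 2 (-0.12) and A80 1 (-0.11), and highest in A41 3 (0.26), A34 3 (0.24), A41 2 (0.12) and ethanol 3 (0.12), so A34 held libraries at both ends. The median SD within groups was 0.18 on the log2 scale for the 62 members, 0.21 for all genes tested and 0.12 for the 2159 genes averaging over 50 scaled TPM.

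**Figure D5:**
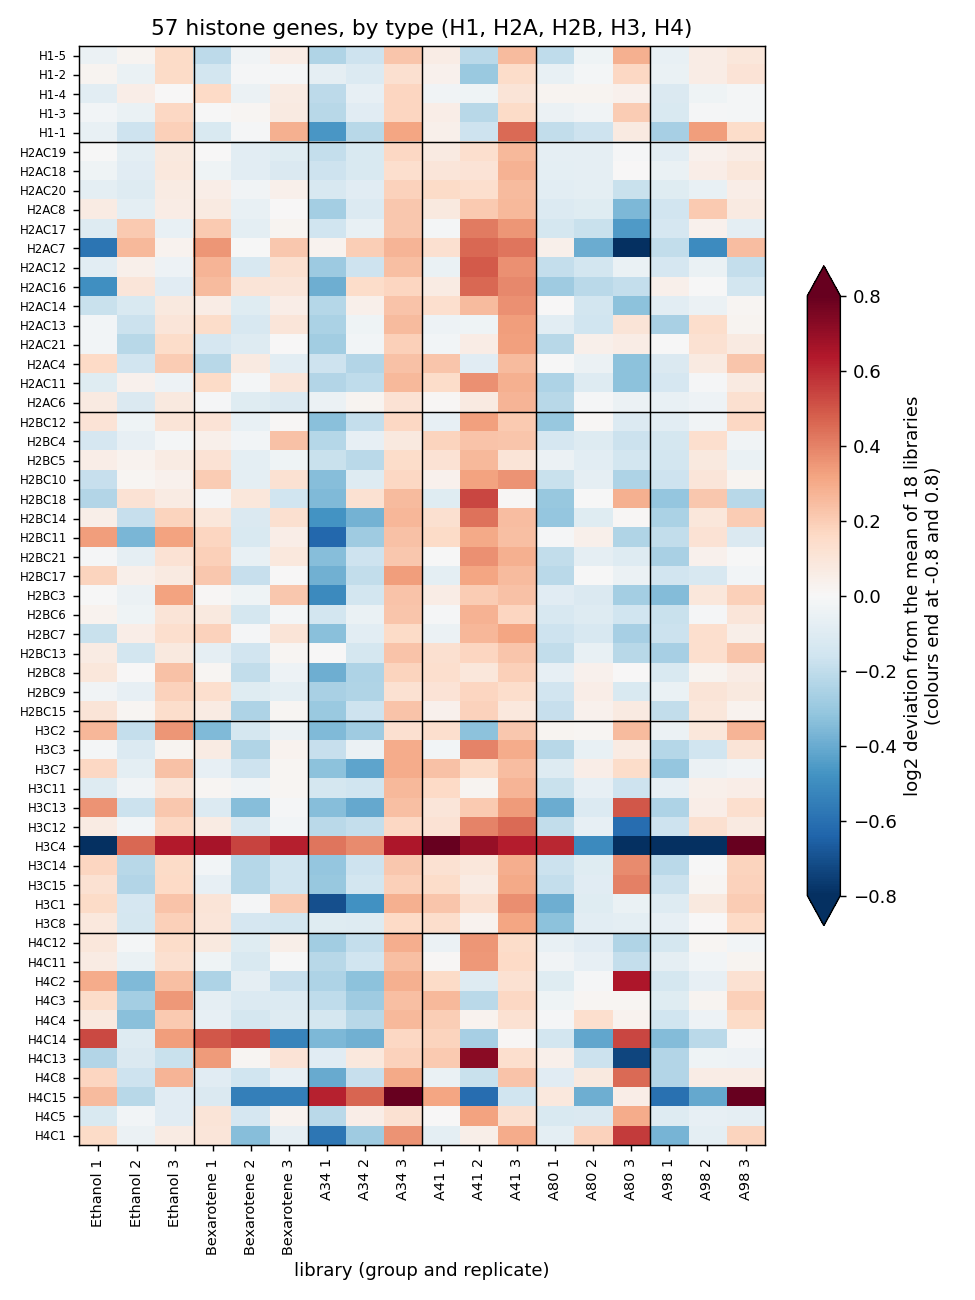
Deviation of each of 57 members from its mean over the 18 libraries, on the log2(scaled TPM + 1) scale, for each library, with members grouped by histone type. Whole columns are low (A34 1, A98 1) or high (A34 3, A41 3), the row of H3C4 departs from its neighbours, and H4C14 and H4C15 vary apart from the other H4 genes.

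Replicate numbers here are those of the titles; the numbers in the table names differ in part, and the library titled 3 is numbered 4 there in all 6 groups. The summed level was highest in the library numbered 3 in 5 of the 6 groups, bexarotene being the exception, and lowest in the library numbered 1 in 4. A term for the number called 0 of 62 members (1.01% of all genes), and 22 of 62 had an unadjusted p under 0.05 (11.6% of all genes), with H1-5 and H1-1 the first (adjusted p = 0.10 each). Without A98 2, 1 member passed for this term, H1-1 (adjusted p = 0.027). H1-1 stood at 44.1, 52.4 and 76.4 in A34 and at 63.2, 54.5 and 84.4 with A41. The labels do not say what the number stands for.

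The mean deviation of 32 S phase and replication genes was lowest in A34 1 (-0.18) and A80 1 (-0.17), which were among the low histone libraries, and highest in A41 2 (0.12) and A41 3 (0.11), which were among the high ones. Other libraries matched less: A34 3 stood at 0.24 for the members and 0.02 for this list. A80 3 stood at -0.06 and 0.09, and A98 1 at -0.20 and -0.06. Over the 18 libraries, as deviations from group means, r between the members' mean and this list's mean was 0.63 (rho 0.67); it was 0.38 for 20 genes of G2 and mitosis, 0.05 for 12 replication-independent histone variants and 0.17 for the other short or non-polyadenylated RNA genes (23 tested). These are descriptions over libraries that share a scaling factor per library, and the part of cell cycle stage in the members' differences was not tested. Against ethanol 0 of 32 S phase genes were called with any rexinoid. The list's median was -0.02 for bexarotene, -0.13 for A34, 0.06 for A41, -0.10 for A80 and -0.04 for A98. RRM2 and RRM1, subunits of the enzyme that makes deoxynucleotides, led the list with means of 217 and 108. Of the 20 G2 and mitosis genes, led by the ubiquitin-conjugating enzyme gene UBE2C (232) and the cyclin gene CCNB1 (133), 0 were called against ethanol, with medians of 0.11 for A41 and -0.06 for both A34 and A80.

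The listed genes of histone transcription and message processing gave no call against ethanol either. Of 25 genes of histone transcription and 3-prime end processing 24 were tested, and 0 were called against ethanol with any rexinoid; SSRP1 and SUPT16H, which encode the FACT complex, led the list with means of 162 and 54.0. SLBP, NPAT and HINFP are named for their roles, with their values known. SLBP, the stem-loop binding protein, averaged 50.7 (from 40.9 in A34 1 to 57.2 in ethanol 3), with log2 differences of -0.22 for A34 (SE 0.07, adjusted p = 0.31) and -0.17 for A80 (SE 0.07, adjusted p = 0.51), and of 0.01 for A41. NPAT, the coactivator of histone gene transcription, averaged 6.39, with -0.30 for A80 (SE 0.10, adjusted p = 0.38). HINFP averaged 3.21, with 0.41 for bexarotene (SE 0.19, adjusted p = 0.85). Of the 19 genes listed as histone chaperones, which leave out SSRP1 and SUPT16H and were led by NAP1L1 and NAP1L4 at 108 each, 0 were called. The replication-independent variants, which are also made outside S phase and mostly from mRNA with a poly(A) tail, were led by H2AZ1 (299) and H3-3B (176). Of the 12, 0 were called against ethanol with any rexinoid. Among 23 tested short or non-polyadenylated RNA genes the small Cajal body RNA gene SCARNA5 was called with A41 (log2 difference 1.33, SE 0.23, adjusted p = 0.0089) and 0 with the other rexinoids. The median of these 23 was above 0 with every rexinoid, at 0.36 for bexarotene, 0.21 for A34, 0.35 for A41, 0.21 for A80 and 0.17 for A98, and the part of the recovery of such RNA in the histone differences was not tested.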

How the data were processed

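Total RNA was depleted of ribosomal RNA, sheared, primed at random and read in pairs, per the labels' protocols. STAR, StringTie and MultiQC were used with GRCh38, per the submitters' processing notes; their versions, the annotation and the strand setting are not stated by the sources at hand. The deposited TPM of each library was used for every level and test; the deposited FPKM and Coverage (signal in reads per base) gave only depth, as the commonest ratio of coverage to FPKM over genes. Between 2 and 3 gene IDs per library were listed more than once and summed. No pair of libraries held identical values (0 pairs). The tables hold no read counts.

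TPM was divided by a median-of-ratios factor from 16349 genes above 0 in every library. The 18269 genes reaching 1 TPM in 3 or more libraries were fitted as log2(scaled TPM + 1) in limma 3.58.1 (R 4.3.3), 6 groups and 18 libraries in 1 model with 12 residual degrees of freedom and a trend, two-sided, threshold 0.05 after Benjamini-Hochberg adjustment. Fold changes on this scale understate low genes. The fit was tested on simulated data. Members, lists and tests were chosen with earlier results of these data known. The genes named are the 12 highest members and the 2 highest of each type, called members, the 3 of smallest p per comparison with ethanol, called list genes or otherwise the 2 highest of a list, and members whose reads are shared; other names were chosen with their values seen. Of the 60675 gene IDs, 58444 were in GENCODE release 29; promoters are from RefSeq. Alternatives were other scalings, pseudocounts, filters and moderation, a replicate block, and leaving out libraries or members. The results for 1 gene of the variant list and 1 marker gene are not reported here.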

Additional observations from a re-analysis of the deposited data

How the results depend on the processing

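Of 217 recomputed counts of called members, 215 stayed at 0, and the others arose when 1 library was left out: over such omissions the calls over the 10 rexinoid pairs ran from 0 to 2 and those for the replicate number from 0 to 1. Of 131 recomputed medians 121 moved by less than the SD between replicates (0.13). The rest moved with the scaling. The medians of the main fit, from -0.10 (A80) to 0.12 (A41), are themselves smaller in size than this SD. A median could thus change sign and still count as moved by less, so the count of 121 does not show that the medians are stable. With TPM as deposited the median log2 difference from ethanol was -0.25 for bexarotene, -0.21 for A41 and 0.14 for A98, where all genes had medians of -0.16, -0.27 and 0.15. With upper-quartile scaling it was -0.22 for A34, 0.027 for A80 and -0.17 for A98 (all genes -0.11, 0.11 and -0.13). With ribosomal RNA left out of TPM it was -0.19 for bexarotene, -0.21 for A34, -0.043 for A41 and -0.24 for A80 (all genes -0.12, -0.11, -0.16 and -0.12). Relative to all genes, each rexinoid kept its sign under these 3 scalings. Leaving out 1 library gave medians from 0.05 to 0.19 for A41, from -0.16 to -0.06 for A80, from -0.20 to 0.01 for A34, from -0.10 to 0.04 for A98 and from -0.10 to -0.01 for bexarotene. Some settings only left out members, among them one without H3C4 and H2AC7, chosen after seeing the data. They counted fewer members of the main fit, which called 0. Their counts, which are among the 217, could therefore only be 0 and are no check of the result. Of the pairs of libraries with the same number in their titles, 11 of 45 had an r over 0.1 (median 0.03), against 7 of 90 pairs with other numbers (median -0.006). By the numbers of the table names these were 9 of 36 and 9 of 99. Libraries with the same number thus went together more often, though not in every pair. The labels do not say what the number stands for, and the main fit had no term for it. Such a term called 1.01% of all genes, so a shared effect of the number is not excluded. With the replicate block, by either numbering, the calls stayed at 0 against ethanol, over the pairs and in the F test. With 3 libraries per group and a median SE of 0.14 for a member, small changes were not detectable.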

Other observations

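Histone genes of the smaller loci, which the newer names leave outside the set, were low. H2AW averaged 11.2 scaled TPM over the 18 libraries, H2BU1 5.89 and H3-4 0.0698, while H4-16, on chromosome 12, averaged 31.7 and ranged from 12.5 (A80 3) to 50.1 (A80 1). The 12 dropped pseudogenes averaged at most 4.83 (H2BC20P). SCARNA2, a small Cajal body RNA gene, was under 2 in 4 libraries and had a median of 297 over the 18.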
